A study of Homo sapiens with 48 samples.

Results

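Oci-Ly8 is a cell line of germinal centre B cell-like diffuse large B cell lymphoma (GCB-DLBCL), a tumour of B cells that carry the programme of the germinal centre. The comparison described here sets Oci-Ly8 cells grown with an EZH2 inhibitor (EZH2i, GSK343) against Oci-Ly8 cells grown with a DOT1L inhibitor (DOT1Li, EPZ-5676, spelled EZP-5676 in some of the labels). Its members were the 3 EZH2i and the 3 DOT1Li libraries of this line, 6 of the 48 libraries of the series, chosen by line and treatment labels and not by any measured value. The series covers 4 GCB-DLBCL lines (Oci-Ly8, Oci-Ly7, Oci-Ly18 and SUDHL6), each with DMSO, DOT1Li, EZH2i or both inhibitors together, in 3 replicates. Treatment lasted 6 days, with cells reseeded in fresh medium and inhibitor on day 3. The 3 DMSO libraries of Oci-Ly8 are given as the solvent background. The labels give neither the doses nor whether the replicates were separate cultures, so a p-value measures only spread between libraries. That spread was estimated over the replicates of all 16 groups of the series, and not from the 6 compared libraries alone. All 6 libraries come from 1 cell line, and matched doses of the agents cannot be assumed.

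EZH2 is the enzyme within Polycomb repressive complex 2 (PRC2) that places the H3K27 methyl mark on histones and keeps genes silent. Germinal centre B cells use it to hold back genes of plasma cells, of memory cells and of cell cycle exit. DOT1L places the H3K79 methyl mark in the bodies of transcribed genes and works beside elongation factors. The series was designed to ask what each inhibitor, alone or with the other, does to the identity of these lymphoma cells, and the comparison of the single agents asks where their outcomes differ.

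The 3 EZH2i libraries held 14348393, 14258359 and 18262916 counts. The DOT1Li libraries held 11391942, 13694466 and 5174269, so replicate 3 was the shallowest of the 6. DOT1Li replicate 3 and DMSO replicate 3 were also low in long transcripts. The slope of log2 CPM (read counts relative to library size, scaled by TMM) on log2 exonic length was 0.409 and 0.381 in these libraries, against 0.533 to 0.750 in the other 46. Results are therefore given with all libraries and without DOT1Li replicate 3, and "in both fits" means called in the same direction in each. Genes with a Benjamini-Hochberg adjusted p under 0.05 over all 17749 genes tested, from edgeR's quasi-likelihood test, are referred to as called. Fold changes are log2 of EZH2i over DOT1Li, so positive values are higher with EZH2i.

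Between EZH2i and DOT1Li, Oci-Ly8 differed in members of the lists for amino acid supply, protein secretion, interferon response, B cell receptor signalling and the NADPH oxidase. With all libraries 1395 genes (7.86% of those tested) were higher and 1127 (6.35%) lower with EZH2i, 14.2% together. Without DOT1Li replicate 3 the counts were 1085 (6.11%) and 778 (4.38%), 10.5% together. Without EZH2i replicate 1 the count lower was 719, and without EZH2i replicate 3 it was 749. In both fits 962 genes (5.42%) were higher and 659 (3.71%) lower. A log2 difference of at least 1 in both fits was reached by 148 higher and 204 lower genes, so more genes were higher with EZH2i, but more of the large differences were lower. The median over 16695 tested genes with counts in the 6 libraries was -0.01 with all libraries. Upper-quartile scaling turned the balance of the calls, with 1163 genes higher and 1534 lower.

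Against DMSO, DOT1Li gave 627 genes higher (3.53%) and 484 lower (2.73%), 6.26% together. EZH2i gave 1605 higher (9.04%) and 1409 lower (7.94%), 17% together. These comparisons share the DMSO libraries. The count lower with DOT1Li was 941 without DOT1Li replicate 3, 802 without DMSO replicate 1, 311 without DOT1Li replicate 1 and 238 without DOT1Li replicate 2. That higher with DOT1Li was 406 without replicate 1 and 382 without replicate 2. The count lower with EZH2i was 720 without DMSO replicate 3, 2158 without DMSO replicate 1, 929 without EZH2i replicate 1 and 858 without EZH2i replicate 3. Without replicate 3 of both DMSO and DOT1Li, a choice made after seeing the data, 546 genes (3.08%) were higher and 393 (2.21%) lower with DOT1Li (5.29% together), and 1468 (8.27%) and 858 (4.83%) with EZH2i (13.1% together).

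Among protein-coding genes that were called in both fits, reached 5 CPM and did not overlap between the groups, KIAA1671 had the highest fold change. It lies on chromosome 22 (ENSG00000197077, bases 24952716 to 25197448). Its level was 7.05, 6.101 and 6.596 CPM with EZH2i and 0.461, 1.31 and 0.8599 CPM with DOT1Li, against 0.222, 0.283 and 0.343 CPM with DMSO. The EZH2i libraries all stood above the rest, a 7.17-fold difference (log2 fold change 2.84, SE 0.29, adjusted p = 9.6e-10). BHLHA15 encodes MIST1, a transcription factor of secretory cells. It read 9.25, 3.42 and 8.39 CPM with EZH2i and 1.57, 0.695 and 1.07 CPM with DOT1Li, with EZH2i replicate 2 lowest of its group and still above every DOT1Li library (log2 fold change 2.68, SE 0.41, adjusted p = 5.1e-06). DNTT encodes terminal deoxynucleotidyl transferase, the enzyme of lymphocyte precursors that adds untemplated bases to antigen receptor genes. Its level was 40.4, 44.4 and 42.4 CPM with EZH2i and 9.49, 5.796 and 4.73 CPM with DOT1Li, and 4.15, 4.32 and 3.35 CPM with DMSO. The EZH2i libraries agreed closely at 42.4 ± 2 CPM (SD, n = 3), and the mean was 6.67 ± 2.5 with DOT1Li (SD, n = 3), a 6.06-fold difference (log2 fold change 2.60, SE 0.19, adjusted p = 1.5e-12).

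MET, the receptor of hepatocyte growth factor, and HGF, its ligand, differed in opposite directions. MET read 83.6, 80.6 and 75.5 CPM with EZH2i and 21.6, 27.7 and 16.8 CPM with DOT1Li, with DMSO between the groups at 44.9, 40.6 and 32.9 (log2 fold change 1.81, SE 0.13, adjusted p = 3.2e-12). Against DMSO the log2 difference of MET was 1.01 with EZH2i (adjusted p = 1.4e-07) and -0.79 with DOT1Li (adjusted p = 0.0002). HGF read 2.72, 1.79 and 1.74 CPM with EZH2i and 6.63, 8.89 and 7.52 CPM with DOT1Li, so all 3 EZH2i libraries lay below the DOT1Li libraries (log2 fold change -1.90, SE 0.30, adjusted p = 9.3e-06). Next to these stood INHBE, a subunit of activins, at 8.74, 5.28 and 7.23 CPM with EZH2i and 1.38, 1.24 and 1.07 CPM with DOT1Li (log2 2.48). SLC9A3R2, a membrane scaffold, had a log2 difference of 2.16, the transcription factor NFIX 1.77, the actin-binding coronin CORO2B 1.64, the Hedgehog co-receptor CDON 1.63, protein kinase C theta (PRKCQ) 1.55 and the adaptor GAREM1 1.54. All of these were called in both fits with no overlap between groups, which the rule that chose them requires. Over all genes tested, 14.1% had all 3 EZH2i libraries above the DOT1Li libraries and 13% all 3 below.

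**Figure D1:**
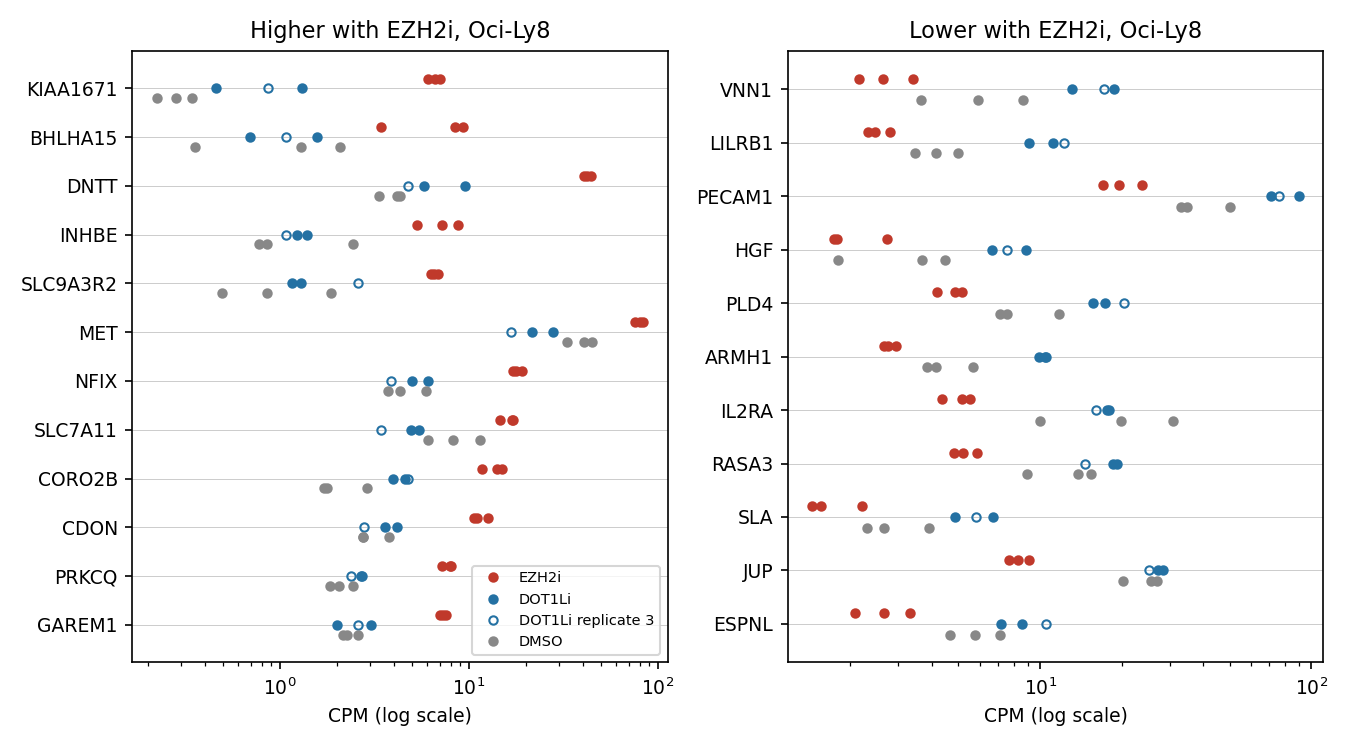
CPM in each Oci-Ly8 library (log axis) of the 12 protein-coding genes with the largest and 11 of the 12 with the smallest log2 fold change among those called in both fits. Points are single libraries of EZH2i, DOT1Li and DMSO, with DOT1Li replicate 3 as an open circle; the EZH2i and DOT1Li libraries of each gene do not overlap, by the rule that chose them.

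By the same selection (both fits, 5 CPM, no overlap), VNN1 had the lowest fold change. VNN1, a membrane enzyme that splits pantetheine, read 2.64, 2.16 and 3.41 CPM with EZH2i and 13.1, 18.8 and 17.2 CPM with DOT1Li (log2 fold change -2.55, SE 0.29, adjusted p = 9.9e-08). LILRB1, an inhibitory receptor for MHC class I, read 2.79, 2.46 and 2.31 CPM with EZH2i and 11.1, 9.12 and 12.3 CPM with DOT1Li (log2 fold change -2.07, SE 0.30, adjusted p = 3.6e-06). PECAM1, the adhesion molecule CD31, read 17.04, 23.8 and 19.6 CPM with EZH2i and 71.02, 89.8 and 76.1 CPM with DOT1Li (ENSG00000261371, chromosome 17, bases 64319415 to 64413776). DMSO lay between, at 33.1, 50.2 and 34.8 CPM, so the groups formed 3 separate ranges. The difference was 3.94-fold (log2 fold change -1.98, SE 0.14, adjusted p = 1.2e-13).

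JUP encodes plakoglobin of cell junctions (ENSG00000173801, chromosome 17, bases 41754604 to 41786931). It read 8.297, 9.08 and 7.695 CPM with EZH2i and 28.4, 27.2 and 25.2 CPM with DOT1Li, and 25.6, 27.03 and 20.3 with DMSO, so DOT1Li and DMSO overlapped and EZH2i stood 3.26-fold below DOT1Li (log2 fold change -1.70, SE 0.10, adjusted p = 2.3e-17). The log2 difference of JUP from DMSO was -1.55 with EZH2i (adjusted p = 8.5e-17) and 0.15 with DOT1Li (adjusted p = 0.38). RASA3, which switches off Ras and Rap GTPases, read 5.87, 5.21 and 4.802 CPM with EZH2i and 18.6, 19.2 and 14.6 CPM with DOT1Li and 15.4, 13.8 and 8.92 with DMSO (log2 fold change -1.77, SE 0.14, adjusted p = 8.6e-13). The endolysosomal nuclease PLD4 had a log2 difference of -1.88, ARMH1 -1.88, the adaptor SLA, which dampens antigen receptor signals, -1.74 and ESPNL -1.67. Each of these was lower with EZH2i in both fits, which the rule that chose them requires.

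The 24 functional gene lists are described by their counts, to be read against the shares of all genes tested, 7.86% called higher and 6.35% lower. The lists with the highest shares called higher were ATF4 stress and amino acid supply (62.5%) and the plasma cell and secretory list (58.1%), against 7.86% of all genes. The phagocyte NADPH oxidase list had the highest share called lower (85.7%, 6 of 7 genes), against 6.35%. No test was made of a list against other genes.

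**Figure D2:**
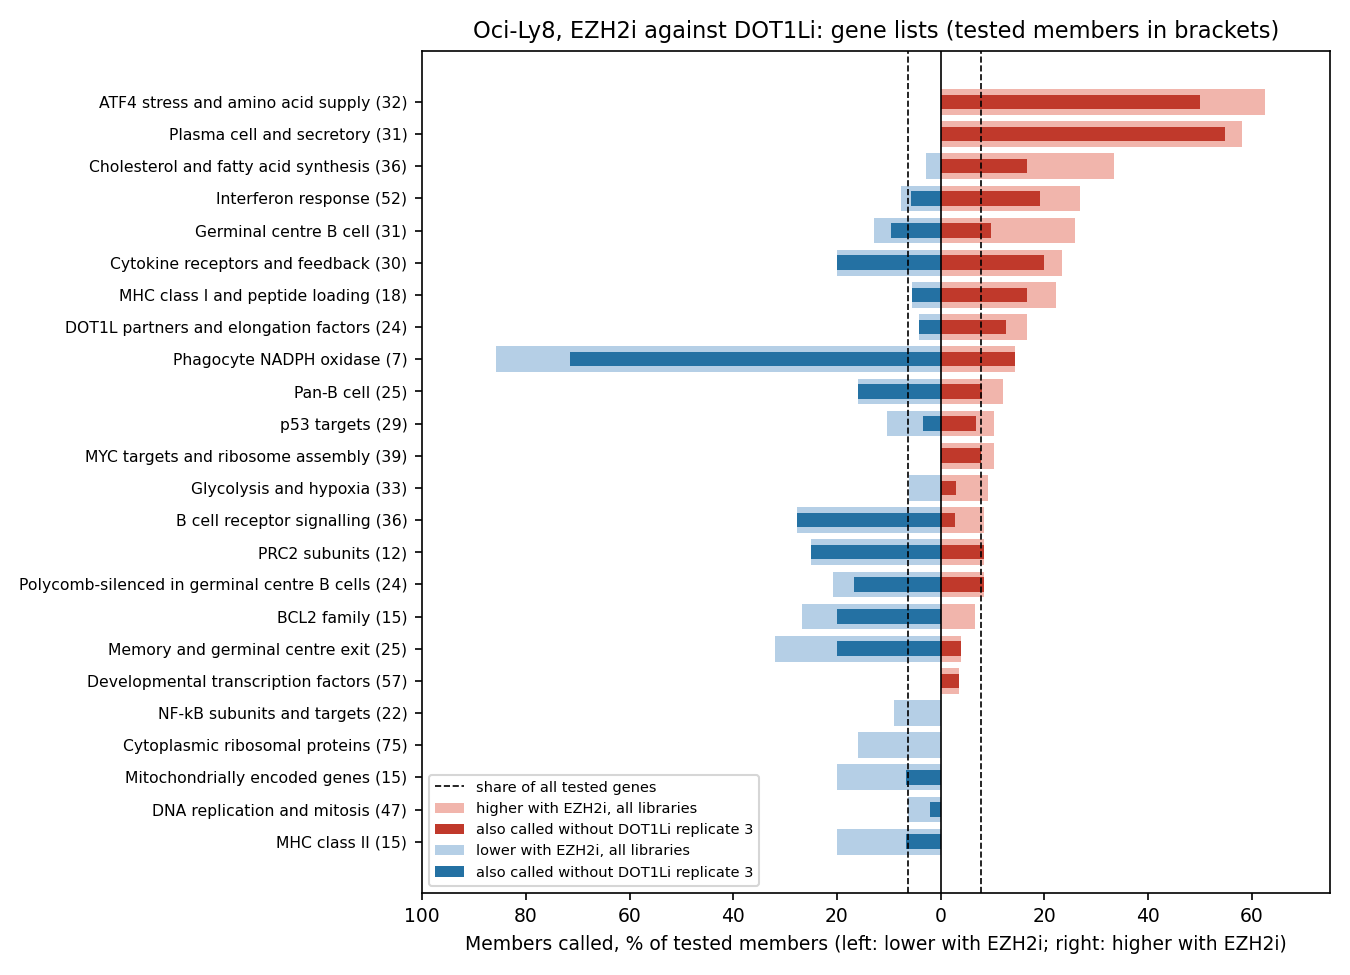
Share of the tested members of each functional list called higher (right, red) or lower (left, blue) with EZH2i against DOT1Li in Oci-Ly8, in percent. Pale bars use all libraries and dark bars count members also called without DOT1Li replicate 3; dashed lines mark the shares of all tested genes, 7.86% higher and 6.35% lower, and the ribosomal protein list has a pale bar with no dark one.

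Genes of the ATF4 response were higher with EZH2i. ATF4 is a transcription factor that is translated when amino acids run short or unfolded proteins build up, and its targets take up, make and charge amino acids. Of 32 members tested, 20 were higher (16 in both fits) and 0 lower, with a median log2 difference of 0.41. At an unadjusted p under 0.05 edgeR gave 24 higher and 0 lower, and DESeq2 and limma voom each gave 0 lower after adjustment. Summed over the list, the EZH2i libraries held 6965 to 7498 CPM, the DOT1Li libraries 5416 to 5682 and the DMSO libraries 6135 to 6606, with DOT1Li below both. ATF4 itself was not called, at 687, 643 and 674 CPM with EZH2i and 569.7, 523 and 706 CPM with DOT1Li (log2 fold change 0.16, SE 0.12, adjusted p = 0.46). The letters TGATG, any base and AA, a form of the ATF4 element, were searched on both strands in the 250 bases before the RefSeq start (GRCh38.p14), and 3.19% of 27305 promoters held a match. A window was matched to 27 of the 32 members, of which 4 (14.8%) held one. Of the 13 matched members called higher in both fits, 1 held one (ATF3).

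Transporters and enzymes of amino acid supply were among the members higher with EZH2i than with DOT1Li. SLC7A11, the cystine and glutamate antiporter, read 17.1, 14.6 and 16.95 CPM with EZH2i and 5.43, 4.95 and 3.44 CPM with DOT1Li, and 11.5, 6.08 and 8.24 with DMSO (log2 fold change 1.75, SE 0.23, adjusted p = 1.6e-07). SLC7A5, the large neutral amino acid transporter, read 485, 465 and 456 CPM with EZH2i and 304, 306 and 238 CPM with DOT1Li (log2 fold change 0.72, SE 0.14, adjusted p = 0.00019). In both genes every EZH2i library lay above every DOT1Li library. The serine synthesis enzyme PSAT1 read 284, 239.6 and 262 CPM with EZH2i and 149, 138 and 133 CPM with DOT1Li, and 182, 168 and 194 with DMSO, so the DMSO libraries lay between the groups (log2 fold change 0.90, SE 0.12, adjusted p = 2.4e-07). GPT2, a mitochondrial alanine transaminase, had a log2 difference of 0.85, WARS1, which charges tryptophan transfer RNA, 0.81, and CTH, which makes cysteine, 1.23. PHGDH, the first enzyme of serine synthesis, was at 0.35 and MTHFD2 of mitochondrial folate metabolism at 0.29.

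Stress regulators of the same list were higher too. ATF3, a stress-induced transcription factor, read 9.03, 9.896 and 7.52 CPM with EZH2i and 3.59, 3.01 and 3.22 CPM with DOT1Li (log2 fold change 1.42, SE 0.22, adjusted p = 3.1e-06). TRIB3, a pseudokinase that ATF4 induces, read 38.6, 31.8 and 34.6 CPM with EZH2i and 20.9, 17.8 and 22.1 CPM with DOT1Li (log2 fold change 0.81, SE 0.13, adjusted p = 8.6e-06), and SESN2, which senses leucine for mTORC1, had a log2 difference of 0.94. CHAC1, which degrades glutathione, was called with all libraries (1.24, adjusted p = 0.03) and not without DOT1Li replicate 3 (1.09, adjusted p = 0.095). Asparagine synthetase (ASNS) was low, at 2.28, 1.56 and 1.504 CPM with EZH2i and 1.11, 1.47 and 0.215 CPM with DOT1Li, and was not called (adjusted p = 0.34). Against DMSO, 13 members were higher and 0 lower with EZH2i. With DOT1Li 0 were higher and 6 lower, or 2 lower without replicate 3 of both groups. ATF5, a relative of ATF4 outside the list, read 326, 277 and 279.98 CPM with EZH2i and 128, 105 and 120.4 CPM with DOT1Li and 187, 140.1 and 192 with DMSO (log2 fold change 1.32, SE 0.13, adjusted p = 4.4e-10).

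Genes of the secretory pathway were higher with EZH2i as well. Plasma cells enlarge their endoplasmic reticulum through XBP1 and IRE1 (ERN1), and the list holds these genes with chaperones and peptide processing enzymes of that compartment. Of 31 members, 18 were higher (17 in both fits) and 0 lower, with a median log2 difference of 0.42. The count at an unadjusted p under 0.05 was 21 higher and 0 lower, and DESeq2 and limma voom gave 0 lower. Summed over the list, the EZH2i libraries held 6341 to 6888 CPM, the DOT1Li libraries 4672 to 5053 and the DMSO libraries 5545 to 6427, so the DOT1Li range was the lowest and did not overlap the others.

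The chaperone HSPA5, known as BiP, read 1375, 1325 and 1300.4 CPM with EZH2i and 889, 874 and 863 CPM with DOT1Li, and 909.98, 1107 and 1174 with DMSO (log2 fold change 0.61, SE 0.10, adjusted p = 1.0e-05). PDIA4, a disulfide isomerase, read 851, 731 and 747 CPM with EZH2i and 492, 446 and 509.7 CPM with DOT1Li (log2 fold change 0.69, SE 0.08, adjusted p = 7.0e-09), and SEC11C, a signal peptidase subunit, 136, 122 and 137 CPM with EZH2i and 65.03, 66.2 and 93.7 CPM with DOT1Li (log2 fold change 0.84, SE 0.13, adjusted p = 5.1e-06). In each of these genes the groups did not overlap. XBP1 read 446, 417 and 422 CPM with EZH2i and 305, 266 and 334 CPM with DOT1Li and 427, 384 and 488 with DMSO (log2 fold change 0.51, SE 0.11, adjusted p = 0.0014). Its log2 difference from DMSO was -0.52 with DOT1Li (adjusted p = 0.0027) and -0.02 with EZH2i (adjusted p = 1). ERN1 had a log2 difference of 0.86, TXNDC5 1.28, the co-chaperone DNAJC3 0.62 and ELL2, an elongation factor of immunoglobulin secretion, 1.06. Against DMSO 14 members were higher and 1 lower with EZH2i, and 1 was higher and 6 lower with DOT1Li. Without replicate 3 of DMSO and DOT1Li these counts were 13 and 1 with EZH2i, and 0 and 5 with DOT1Li.

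While XBP1, ELL2 and BHLHA15 were higher with EZH2i, PRDM1, IRF4, SDC1 and JCHAIN, further genes of plasma cells, were not called. PRDM1, which encodes BLIMP1, read 3.304, 4.09 and 3.24 CPM with EZH2i and 3.59, 4.87 and 3.44 CPM with DOT1Li (log2 fold change -0.22, SE 0.35, adjusted p = 0.78), and IRF4 48.3, 45.4 and 45.5 CPM with EZH2i and 46.5, 39.7 and 30.3 CPM with DOT1Li (log2 fold change 0.22, SE 0.15, adjusted p = 0.37). The surface marker SDC1 had counts in 1 EZH2i library only, at 0.06 CPM. JCHAIN, the joining chain of secreted antibodies, read 67.3, 74.1 and 59.4 CPM with EZH2i and 68.8, 92.2 and 101.3 CPM with DOT1Li (log2 fold change -0.37, SE 0.21, adjusted p = 0.27). In PRDM1, IRF4 and JCHAIN the ranges of the groups overlapped.

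**Figure D3:**
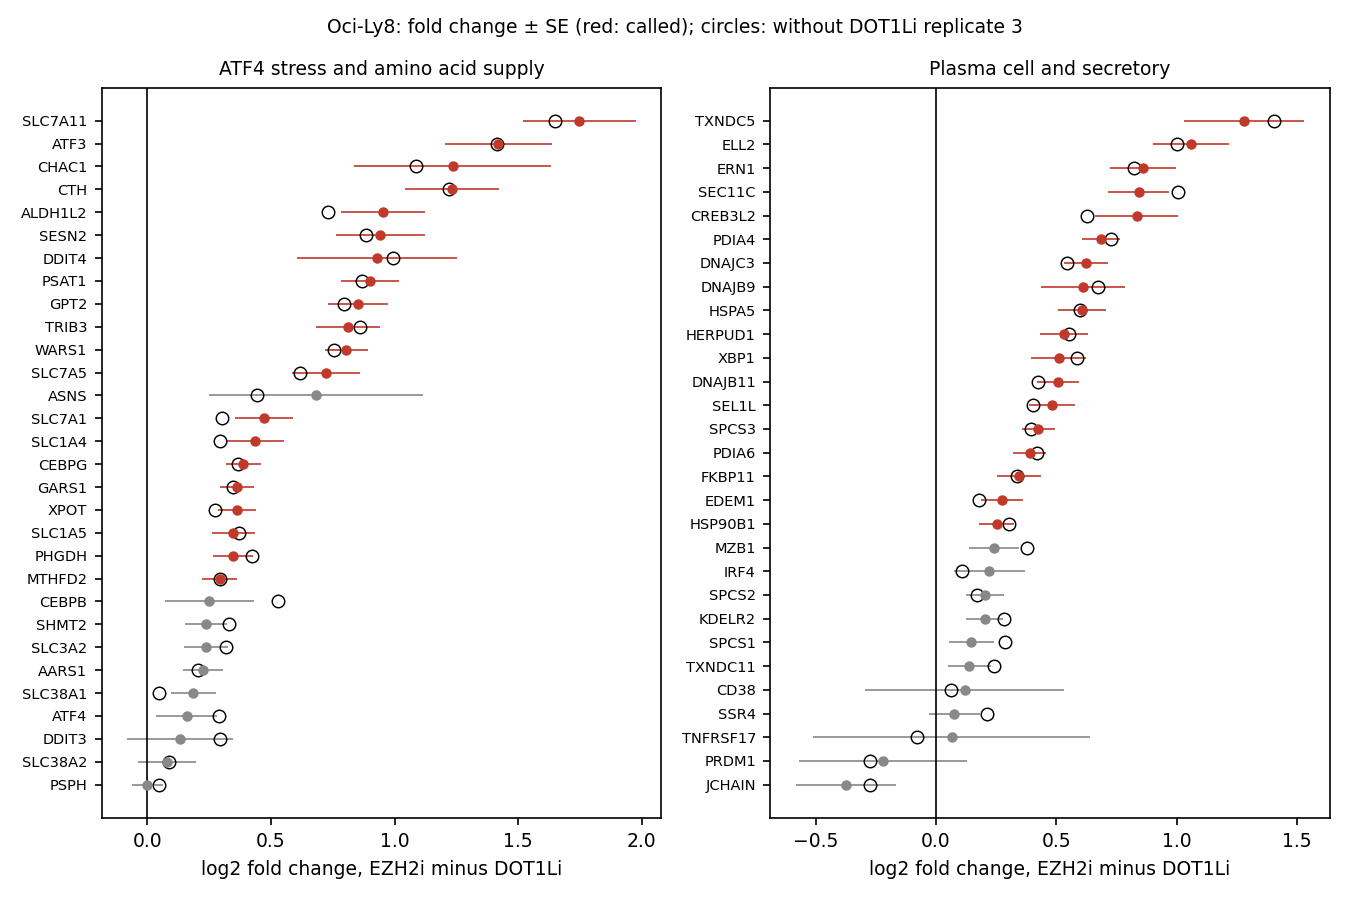
Log2 fold change of EZH2i over DOT1Li in Oci-Ly8, with its standard error, for members of the ATF4 stress and amino acid list (30 of 32) and the plasma cell and secretory list (29 of 31) that had at least 10 counts in the 6 libraries. Filled points use all libraries (red where called), open circles leave out DOT1Li replicate 3; most open circles lie close to their filled points, and no red point lies below 0.

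Interferon-stimulated genes, the antiviral genes that cells switch on in response to interferon, differed in both directions. Of 52 members tested, 14 were higher with EZH2i (26.9%, against 7.86% of all genes) and 4 lower (7.69%, against 6.35%). In both fits 10 were higher and 3 lower, and the median log2 difference was 0.27. Many genes of this kind are known to carry in their promoters the interferon-stimulated response element. The window of 250 bases before the RefSeq start (GRCh38.p14) was searched on both strands for GAAA, any 2 bases and GAAA again. Of 27305 promoters, 3.07% held a match. A window was matched to 38 of the 52 members, of which 22 (57.9%) held one. Of the 7 matched members called higher in both fits, 5 held one (IFI44, IFI44L, DDX60, EPSTI1 and PLSCR1). The windows of 3 of them are printed 5′ to 3′ on the gene's strand, with the matches in capitals. They show where the element lies in genes higher with EZH2i. The windows are those of PLSCR1 (minus strand, chr3:146544608-146544857), IFI44L (plus strand, chr1:78620198-78620447) and IFI44 (plus strand, chr1:78649539-78649788).
PLSCR1: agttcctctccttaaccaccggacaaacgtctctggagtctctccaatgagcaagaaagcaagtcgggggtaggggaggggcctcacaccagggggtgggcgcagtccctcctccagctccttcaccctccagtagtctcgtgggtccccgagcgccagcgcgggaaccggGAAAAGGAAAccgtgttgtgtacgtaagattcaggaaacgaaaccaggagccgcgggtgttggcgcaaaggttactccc
IFI44L: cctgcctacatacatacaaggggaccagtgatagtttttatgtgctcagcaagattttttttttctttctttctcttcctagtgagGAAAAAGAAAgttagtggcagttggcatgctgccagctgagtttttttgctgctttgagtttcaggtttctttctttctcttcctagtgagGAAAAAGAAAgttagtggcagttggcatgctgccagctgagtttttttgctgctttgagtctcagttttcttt
IFI44: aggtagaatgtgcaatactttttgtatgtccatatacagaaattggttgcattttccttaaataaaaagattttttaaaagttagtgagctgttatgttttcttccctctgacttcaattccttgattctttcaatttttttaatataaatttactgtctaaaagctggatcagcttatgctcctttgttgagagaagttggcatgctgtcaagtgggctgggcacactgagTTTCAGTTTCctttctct
The match nearest the start ended 69 bases before it in PLSCR1, 63 in IFI44L, which holds 2 matches, and 8 in IFI44. The match in IFI44 is on the opposite strand. A match is a description of the sequence and not a measured binding site.

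PLSCR1, phospholipid scramblase 1, read 21.7, 27.6 and 20.8 CPM with EZH2i and 11.1, 11.5 and 9.46 CPM with DOT1Li (log2 fold change 1.09, SE 0.14, adjusted p = 5.6e-08). IFI44L read 43.03, 65.1 and 32.5 CPM with EZH2i and 20.4, 17.6 and 21.1 CPM with DOT1Li (log2 fold change 1.26, SE 0.18, adjusted p = 2.5e-06) and IFI44 37.3, 46.7 and 30.2 CPM with EZH2i and 20.9, 20.6 and 21.9 CPM with DOT1Li (log2 fold change 0.85, SE 0.14, adjusted p = 1.3e-05). In these genes every EZH2i library lay above every DOT1Li library, and EZH2i replicate 2 was the highest. MX1, a GTPase that blocks viruses, read 68.8, 111 and 51.4 CPM with EZH2i and 33.3, 34.7 and 31.8 CPM with DOT1Li, and 9.19, 17.9 and 9.53 with DMSO (log2 fold change 1.20, SE 0.19, adjusted p = 2.1e-05). MX1 thus stood above DMSO with each agent, by 2.64 with EZH2i (adjusted p = 8.7e-12) and 1.44 with DOT1Li (adjusted p = 4.0e-05). DDX60 was at 1.35, the viral inhibitor RSAD2 at 1.81 and USP18, which restrains the interferon receptor, at 0.88.

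The members lower with EZH2i in both fits were ISG20, GBP1 and OAS1. ISG20, an exonuclease, read 9.77, 8.63 and 7.52 CPM with EZH2i and 23.5, 17.6 and 30.96 CPM with DOT1Li and 34.3, 22.1 and 40.9 with DMSO (log2 fold change -1.42, SE 0.18, adjusted p = 1.7e-07), so the EZH2i libraries lay below both other groups. GBP1, a guanylate-binding protein that interferon gamma induces strongly, read 6.46, 6.92 and 4.802 CPM with EZH2i and 11.6, 11.3 and 15.5 CPM with DOT1Li (log2 -1.04), and OAS1, which makes the activator of RNase L, 26.9, 39.5 and 28.3 CPM with EZH2i and 45.4, 44.7 and 44.7 CPM with DOT1Li (log2 -0.51). Without EZH2i replicate 2, 9 members of the list were higher. With the 12 Oci-Ly8 libraries alone 10 were higher and 2 lower, and with the 6 compared libraries alone 7 and 2. Against DMSO, 32 members were higher and 1 lower with EZH2i, and 14 higher and 0 lower with DOT1Li. Without replicate 3 of DMSO and DOT1Li these counts were 31 and 1 with EZH2i, and 9 and 0 with DOT1Li.

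Cytokine receptors and their signal transducers differed in both directions. Of 30 members 7 were higher (23.3%, against 7.86% of all genes) and 6 lower (20%, against 6.35%). In both fits 6 were higher and 6 lower, and the median was -0.09. The transducers STAT3, STAT5A and STAT5B were higher with EZH2i. STAT3 read 98.8, 103 and 103 CPM with EZH2i and 64.4, 62.7 and 56.1 CPM with DOT1Li (log2 fold change 0.72, SE 0.07, adjusted p = 1.5e-10), and STAT5B 86.5, 83.5 and 85.6 CPM with EZH2i and 58.1, 50.5 and 48.6 CPM with DOT1Li (log2 fold change 0.69, SE 0.09, adjusted p = 7.7e-08), with no overlap between groups. STAT5A was at 0.50 and STAT6, the transducer of interleukin-4, at -0.26 (adjusted p = 0.001). IL21R, the receptor for the germinal centre helper cytokine interleukin-21, read 37.7, 30.95 and 34.5 CPM with EZH2i and 15.7, 11.8 and 18.1 CPM with DOT1Li, and 23.2, 21.2 and 33.5 with DMSO (log2 fold change 1.23, SE 0.20, adjusted p = 2.4e-05). Other receptors were lower. IL2RA, the alpha chain for interleukin-2, read 5.51, 5.13 and 4.34 CPM with EZH2i and 17.6, 18.01 and 16.1 CPM with DOT1Li (log2 fold change -1.81, SE 0.22, adjusted p = 1.5e-07). DMSO varied widely in IL2RA, at 30.8, 9.98 and 19.8. IL10RA read 3.304, 3.65 and 2.604 CPM with EZH2i and 8.198, 7.57 and 8.599 CPM with DOT1Li (log2 fold change -1.35, SE 0.19, adjusted p = 1.8e-06), and IL7R 0.294, 0.372 and 0.289 CPM with EZH2i and 1.66, 1.08 and 1.505 CPM with DOT1Li (log2 fold change -2.09, SE 0.35, adjusted p = 1.8e-05).

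Components of B cell receptor signalling were lower with EZH2i more often than higher. Of 36 members 10 were lower (10 in both fits) and 3 higher (1 in both fits), against 6.35% and 7.86% of all genes, with a median of -0.11. The members with the most negative fold changes included inhibitory components. FCGR2B, the inhibitory Fc receptor, read 7.196, 6.101 and 5.84 CPM with EZH2i and 18.6, 20.4 and 16.6 CPM with DOT1Li (log2 fold change -1.56, SE 0.19, adjusted p = 2.0e-08). PTPN6 encodes SHP-1, the phosphatase that such receptors recruit, and read 4.04, 4.02 and 4.74 CPM with EZH2i and 13.2, 12.4 and 11.6 CPM with DOT1Li (log2 fold change -1.54, SE 0.18, adjusted p = 2.9e-08). The groups did not overlap in either gene. CD22, another inhibitory receptor, had a log2 difference of -0.34 and the lipid phosphatase INPP5D (SHIP1) -0.23, each with overlapping groups. Among positive components, CD79A, the signalling chain of the receptor, read 94.9, 106 and 112 CPM with EZH2i and 131, 145 and 183 CPM with DOT1Li (log2 fold change -0.54, SE 0.11, adjusted p = 0.00052). PIK3CD, the lymphocyte PI3 kinase, was at -0.35. The linker BLNK was the member higher in both fits, at 174, 209.5 and 205 CPM with EZH2i and 132, 152 and 145 CPM with DOT1Li (log2 fold change 0.45, SE 0.08, adjusted p = 3.6e-05). Of the 3 higher with all libraries, 1 was called without EZH2i replicate 2, without EZH2i replicate 3, without DOT1Li replicate 1 or without DOT1Li replicate 3.

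The NADPH oxidase makes superoxide in phagocytes and is also found in B cells. Of its 7 genes tested, 6 were lower with EZH2i (5 in both fits) and 1 higher. CYBB, the catalytic subunit, read 63.6, 66.7 and 52.8 CPM with EZH2i and 136, 144 and 126 CPM with DOT1Li, and 122, 161 and 116 with DMSO (log2 fold change -1.16, SE 0.13, adjusted p = 1.4e-08). DOT1Li and DMSO overlapped in CYBB, with EZH2i below both. The GTPase RAC2 read 32.8, 35.9 and 32.98 CPM with EZH2i and 49.6, 53.5 and 46.4 CPM with DOT1Li (log2 fold change -0.57, SE 0.08, adjusted p = 4.7e-07), and the chaperone CYBC1 had a log2 difference of -0.41. NCF1 was at -0.58, but has near-identical pseudogenes with which reads may be shared. CYBA was called with all libraries (-0.45) and not without DOT1Li replicate 3 (-0.18, adjusted p = 0.43). NCF4 was the exception, at 195, 214 and 215 CPM with EZH2i and 161, 162 and 210.03 CPM with DOT1Li (log2 fold change 0.24, SE 0.08, adjusted p = 0.046). Its groups overlapped, and it was not called without EZH2i replicate 2, EZH2i replicate 3, DOT1Li replicate 1 or DOT1Li replicate 2, or under upper-quartile scaling. With the 12 Oci-Ly8 libraries or the 6 compared libraries alone, 0 members of this list were higher and 5 lower.

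Markers of other cell types were measured beside these genes. The B cell marker MS4A1 (CD20) was abundant in all 6 libraries, at 655, 760.2 and 731 CPM with EZH2i and 546, 682 and 667 CPM with DOT1Li. Of 18 T cell markers 11 were tested, and 5 were lower with EZH2i in both fits (45.5%, against 3.71% of all genes). They were LCK (-1.37), CD3G (-1.62), IL7R (-2.09), CD4 (-1.67) and ZAP70 (-0.43). LCK, a kinase of T cells and of some B cell tumours, read 6.54, 8.04 and 9.08 CPM with EZH2i and 20.1, 20.9 and 20.9 CPM with DOT1Li, and 20.2, 24.8 and 29.4 with DMSO. The T cell markers summed to 82.0 to 86.3 CPM with EZH2i, 126 to 128 with DOT1Li and 87.1 to 104 with DMSO. The receptor genes TRBC1 and TRBC2, and ICOS, had 0 counts in all 6 libraries. The 6 libraries come from the same cell line. In bulk RNA, fewer cells with a given transcript and less of it per cell cannot be told apart.

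Of 15 myeloid markers 6 were tested and 1 was called, LYZ (lysozyme), which was lower (16.7%, against 6.35% of all genes). It read 4.33, 4.61 and 5.15 CPM with EZH2i and 8.11, 10.5 and 12.5 CPM with DOT1Li (log2 fold change -1.09, SE 0.20, adjusted p = 5.3e-05). The list summed to 7.58 to 7.66 CPM with EZH2i and 11.9 to 15.05 with DOT1Li, and CD163, MPO, ELANE, MARCO, VCAN, FCGR1A and CD68 had 0 counts. CD68 overlaps an antisense gene at one end in the deposited table, so how its reads were counted is uncertain. In the fibroblast and endothelial list 6 members were tested and PECAM1 was the 1 called (16.7% lower, against 6.35% of all genes). This list summed to 18.9 to 25.6 CPM with EZH2i and 72.2 to 91.0 with DOT1Li, with KDR and COL1A2 at 0. In the NK, erythroid, epithelial and neuronal lists edgeR called 0 of 4, 1, 3 and 3 members tested, with 0 at an unadjusted p under 0.05 and 0 by DESeq2 and limma voom. The part of these marker genes in the results above was not tested.

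Of 25 genes of memory B cells and of exit from the germinal centre, 8 were lower with EZH2i (32%, against 6.35% of all genes). In both fits 5 were lower. With all libraries 1 was higher (4%, against 7.86%), and the median was -0.33. Those lower in both fits included PLAC8 at 5.87, 7.14 and 5.09 CPM with EZH2i and 12.5, 11.98 and 14.6 CPM with DOT1Li (log2 fold change -1.10, SE 0.19, adjusted p = 3.9e-05) and the migration receptor GPR183 at 13.3, 19.05 and 21.2 CPM with EZH2i and 26.5, 40.6 and 37.6 CPM with DOT1Li (log2 fold change -0.95, SE 0.21, adjusted p = 0.0017). S1PR1, which guides lymphocytes out of tissue, was at -0.48. TNFRSF13C, the receptor of the survival factor BAFF, read 38.04, 43.4 and 42.3 CPM with EZH2i and 66.3, 54.4 and 57.2 CPM with DOT1Li and 46.5, 35.8 and 45.8 with DMSO (log2 fold change -0.53, SE 0.13, adjusted p = 0.0042). Its EZH2i and DMSO libraries overlapped and DOT1Li lay above them. The co-repressor SKI was the exception, at 17.5, 16.2 and 19.2 CPM with EZH2i and 10.5, 11.4 and 7.31 CPM with DOT1Li (log2 fold change 0.80, SE 0.15, adjusted p = 7.5e-05).

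Among transcription factors of germinal centre and B cell identity, BCL6 and PAX5 were not called, while FOXO1 and EBF1 were called higher. BCL6, the master repressor of the germinal centre programme, read 143, 158 and 155 CPM with EZH2i and 127, 139.8 and 108 CPM with DOT1Li (log2 fold change 0.27, SE 0.12, adjusted p = 0.15), and PAX5, which maintains B cell identity, 282, 321 and 309 CPM with EZH2i and 272, 290.2 and 199 CPM with DOT1Li (log2 fold change 0.25, SE 0.10, adjusted p = 0.083). In BCL6 the groups did not overlap, and in PAX5 they did. FOXO1, a dark zone transcription factor, read 114, 113 and 111 CPM with EZH2i and 87.3, 88.1 and 81.3 CPM with DOT1Li (log2 fold change 0.39, SE 0.07, adjusted p = 3.9e-05), and the B lineage factor EBF1 70.7, 66.1 and 74.4 CPM with EZH2i and 45.9, 52.4 and 49.4 CPM with DOT1Li (log2 fold change 0.52, SE 0.07, adjusted p = 7.5e-07). These factors were higher with EZH2i with no overlap. Of 31 germinal centre genes 8 were higher (25.8%) and 4 lower (12.9%), against 7.86% and 6.35% of all genes, and 3 and 3 in both fits. IRAG2 was at 0.56, HMCES, which guards abasic DNA, at -0.53 and the activation marker CD83 at 0.43. Without EZH2i replicate 2 the count higher was 5, and without EZH2i replicate 3 the count lower was 2. With the 12 Oci-Ly8 libraries alone 2 were higher and 2 lower, and with the 6 compared libraries alone 4 and 2. Of 25 pan-B cell genes 3 were higher (12%) and 4 lower (16%), with 2 and 4 in both fits, among them FCRLA at -0.55. Without DOT1Li replicate 2 the count higher was 5, and without DOT1Li replicate 1 the count lower was 2.

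Antigen presentation genes were called in both directions. Of 15 MHC class II genes 3 were lower (20%, against 6.35% of all genes; 1 in both fits) and 0 higher, with 0 higher also at an unadjusted p under 0.05 and by DESeq2 and limma voom. HLA-DOB, which limits peptide loading in B cells, read 0.808, 1.26 and 0.810 CPM with EZH2i and 2.95, 2.63 and 5.16 CPM with DOT1Li (log2 fold change -1.77, SE 0.30, adjusted p = 1.6e-05). The transactivator CIITA read 76.4, 79.8 and 74.5 CPM with EZH2i and 94.7, 104 and 71.8 CPM with DOT1Li (log2 fold change -0.25, SE 0.10, adjusted p = 0.11) with all libraries, and without DOT1Li replicate 3 it was called, at -0.37 (adjusted p = 0.012). HLA-DRA was not called, at 356, 382 and 379 CPM with EZH2i and 398, 407 and 431 CPM with DOT1Li (adjusted p = 0.25). Of 18 genes of the class I pathway 4 were higher (22.2%, against 7.86% of all genes) and 1 lower, and 3 and 1 in both fits. The chaperone CALR was at 0.31, PDIA3 at 0.26 and HLA-C at 0.25, while the peptide trimmer ERAP2 read 23.6, 21.5 and 25.1 CPM with EZH2i and 31.7, 34.5 and 34.8 CPM with DOT1Li (log2 fold change -0.52, SE 0.07, adjusted p = 1.1e-06). Without EZH2i replicate 1 or without DOT1Li replicate 2, 2 members were higher. With the 12 Oci-Ly8 libraries alone or the 6 compared libraries alone, 0 class I members were higher and 1 was lower. HLA genes share sequence, so reads may be divided between them.

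Genes that PRC2 silences in germinal centre B cells were called in both directions. Of 24 members 2 were higher (8.33%, near the 7.86% of all genes) and 5 lower (20.8%, against 6.35%). In both fits 2 were higher and 4 lower, and the median was -0.11. STAT3, named above, and the death receptor TNFRSF21 (13.4, 13.2 and 12.7 CPM with EZH2i and 8.93, 9.27 and 4.08 CPM with DOT1Li; log2 0.69) were the ones higher. The lower members called in both fits included IL10RA, FCRL3 (-2.22) and FCRL5 (-2.30), the last under 1 CPM in every library. The count lower was 1 without EZH2i replicate 3 and 3 without EZH2i replicate 2, without DOT1Li replicate 1 or without DOT1Li replicate 2. Of 57 developmental transcription factors tested, 37 had counts in these libraries, and 2 were higher and 0 lower. The share higher, 3.51%, was below the 7.86% of all genes. MEIS1, a cofactor of HOX proteins, read 1.69, 2.08 and 1.79 CPM with EZH2i and 0.553, 0.618 and 0.4299 CPM with DOT1Li (log2 fold change 1.71, SE 0.41, adjusted p = 0.0028), and HOXB3 read 11.5, 8.93 and 11.9 CPM with EZH2i and 6.08, 7.03 and 4.299 CPM with DOT1Li (log2 fold change 0.82, SE 0.20, adjusted p = 0.0036). The count lower was 1 at an unadjusted p under 0.05, and 1 by DESeq2 and by limma voom after adjustment, and edgeR called 1 lower without DOT1Li replicate 1 or DOT1Li replicate 2.

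The inhibited enzymes themselves were measured as RNA, which does not report their activity. EZH2 read 315, 319.5 and 310.2 CPM with EZH2i and 301, 311 and 259 CPM with DOT1Li (log2 fold change 0.11, SE 0.06, adjusted p = 0.23) and its relative EZH1 35.2, 31.4 and 30.4 CPM with EZH2i and 40.3, 30.99 and 26.01 CPM with DOT1Li (adjusted p = 0.92). DOT1L read 118, 118 and 111 CPM with EZH2i and 100.6, 99.3 and 79.5 CPM with DOT1Li and 121, 115 and 86.2 with DMSO (log2 fold change 0.30, SE 0.08, adjusted p = 0.0094). It was called with all libraries and not without DOT1Li replicate 3 (log2 0.21, adjusted p = 0.11). Among 12 PRC2 genes, the accessory subunit JARID2 was higher, at 40.1, 38.9 and 41.3 CPM with EZH2i and 27.4, 25.3 and 17.6 CPM with DOT1Li (log2 fold change 0.72, SE 0.12, adjusted p = 1.0e-05). MTF2 (-0.33), RBBP7 (-0.21) and RBBP4 (-0.15) were lower, all in both fits, and 1 of the 3 was called without DOT1Li replicate 1. With the 12 Oci-Ly8 libraries alone or the 6 compared libraries alone, 0 PRC2 genes were lower. The shares of the list were 8.33% higher and 25% lower, against 7.86% and 6.35% of all genes. Of 24 DOT1L partners and elongation factors 4 were higher (16.7%, against 7.86% of all genes) and 1 lower (4.17%, against 6.35%). In both fits 3 were higher. MLLT3 (AF9), which brings DOT1L to chromatin, read 43.2, 35.3 and 40.5 CPM with EZH2i and 25.6, 23.96 and 27.9 CPM with DOT1Li and 43.5, 33.4 and 39.4 with DMSO (log2 fold change 0.63, SE 0.11, adjusted p = 6.1e-05). For MLLT3 the DMSO and EZH2i libraries overlapped, and its log2 difference from DMSO was -0.60 with DOT1Li (adjusted p = 0.0005). ELL was at 0.28 and menin (MEN1) at -0.20.

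Of 36 lipid synthesis genes 12 were higher with EZH2i (33.3%, against 7.86% of all genes) and 1 lower (2.78%, against 6.35%). In both fits the counts were 6 and 0. The median log2 difference was 0.22 with all libraries and 0.20 without DOT1Li replicate 3, and 17 members were higher at an unadjusted p under 0.05 in each fit. After adjustment, without DOT1Li replicate 3 the count higher was 7, without EZH2i replicate 1 it was 6 and without EZH2i replicate 3 it was 7. SCD, which desaturates fatty acids, read 1737, 1577 and 1566 CPM with EZH2i and 1250.0, 1137 and 919 CPM with DOT1Li (log2 fold change 0.56, SE 0.12, adjusted p = 0.0005), FADS2 446, 416 and 437 CPM with EZH2i and 334, 264 and 318 CPM with DOT1Li (log2 fold change 0.51, SE 0.09, adjusted p = 2.4e-05) and FASN, the fatty acid synthase, 457, 478 and 479.9 CPM with EZH2i and 374, 363 and 289.8 CPM with DOT1Li (log2 fold change 0.46, SE 0.10, adjusted p = 0.001). The groups did not overlap in these genes. The cholesterol enzyme DHCR7 was at 0.48, while SQLE, another enzyme of that pathway, was not called (0.14).

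MYC read 425, 413 and 418 CPM with EZH2i and 314, 282 and 347 CPM with DOT1Li (log2 fold change 0.42, SE 0.09, adjusted p = 0.00087), with all EZH2i libraries above the DOT1Li libraries. In its list of targets and ribosome assembly genes 4 of 39 were higher (10.3%, against 7.86% of all genes) and 0 lower. In both fits 3 were higher. At an unadjusted p under 0.05, 3 were lower, and DESeq2 and limma voom gave 0 and 1 lower. Without EZH2i replicate 2, 2 were higher, and leaving out DOT1Li replicates 1, 2 or 3 gave 2, 1 and 1 lower. ODC1, the first enzyme of polyamine synthesis, was at 0.44. Of 47 replication and mitosis genes 3 were lower, 6.38% and thus near the 6.35% of all genes. In both fits 1 was lower (RRM1, at -0.25), and without DOT1Li replicate 3 the count lower was 1. With the 12 Oci-Ly8 libraries or the 6 compared libraries alone it was 0. Of 29 p53 targets 3 were higher and 3 lower, 10.3% each, against 7.86% and 6.35% of all genes. In both fits the counts were 2 and 1. SESN1 was at 0.78, the death receptor FAS at 0.81 and TP53INP1 at -0.97. The count of p53 targets lower was 0 without EZH2i replicate 1 or without DOT1Li replicate 1, and 1 without EZH2i replicate 2. CDKN1A, the p21 inhibitor of the cell cycle, read 44.6, 36.3 and 42.01 CPM with EZH2i and 33.2, 24.1 and 30.96 CPM with DOT1Li and was not called (adjusted p = 0.076).

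In the BCL2 family 4 of 15 were lower (26.7%, against 6.35% of all genes) and 1 higher (6.67%, against 7.86%). In both fits 3 were lower and 0 higher. BMF, which promotes cell death, read 24.6, 23.4 and 31.2 CPM with EZH2i and 38.6, 40.2 and 41.9 CPM with DOT1Li (log2 fold change -0.59, SE 0.14, adjusted p = 0.0026), BIK was at -1.28 and the survival gene BCL2L1 at -0.32. Without EZH2i replicate 2, 1 was lower. BCL2 itself read 231, 230.4 and 212 CPM with EZH2i and 216, 211 and 128 CPM with DOT1Li (adjusted p = 0.23). Of 33 glycolysis and hypoxia genes 3 were higher (9.09%) and 2 lower (6.06%), near the 7.86% and 6.35% of all genes. In both fits the counts were 1 (HK1, at 0.34) and 0. With the 12 Oci-Ly8 libraries or the 6 compared libraries alone, 0 were higher and 0 lower. Of the 3 higher, 1 was called without EZH2i replicate 1 or without DOT1Li replicate 3. The count lower was 0 without EZH2i replicate 3 or DOT1Li replicate 3, and 1 without EZH2i replicate 1 or DOT1Li replicate 1. Against DMSO the number lower was 13 with DOT1Li and 16 with EZH2i, or 12 and 11 without replicate 3 of DMSO and DOT1Li. Of 22 NF-kB genes 2 were lower (9.09%, against 6.35% of all genes), NFKB2 (-0.41) and RELB (-0.43), neither of them in both fits. Leaving out any 1 library but DOT1Li replicate 2 left 1 or 0 lower. Of 15 mitochondrially encoded genes 3 were lower (20%, against 6.35% of all genes), 1 of them in both fits (MT-CO3, -0.20). Without EZH2i replicate 2, 1 was lower, and with the 12 Oci-Ly8 libraries or the 6 compared libraries alone 0 were.

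Calls for ribosomal protein genes depended on single libraries, DOT1Li replicate 3 among them. Of 75 cytoplasmic ribosomal protein genes 12 were lower with EZH2i with all libraries and 0 higher, with a median of -0.29. Without DOT1Li replicate 3 edgeR called 0 lower (2 at an unadjusted p under 0.05) and the median was -0.04. With all libraries DESeq2 called 22 lower and limma voom with library weights 9. The summed level was 63770 to 66476 CPM with EZH2i and 63908 to 105538 with DOT1Li. Without other libraries the count lower was 1 (EZH2i replicate 1), 0 (EZH2i replicate 2), 3 (EZH2i replicate 3), 23 (DOT1Li replicate 1) and 62 (DOT1Li replicate 2).

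DOT1Li replicate 3 also moved the comparison along transcript length. Tested genes with a known exonic length were divided into 4 bins of equal size. In the bin of the shortest transcripts the median log2 difference was -0.11 with all libraries and -0.02 without DOT1Li replicate 3. In the bin of the longest it was 0.06 and 0.01. Genes in that bin were called higher 567 times with all libraries and 370 times without it, and lower 264 and 245 times. With the trend on exonic length removed from each library, 1385 genes were higher and 1271 lower.

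**Figure D4:**
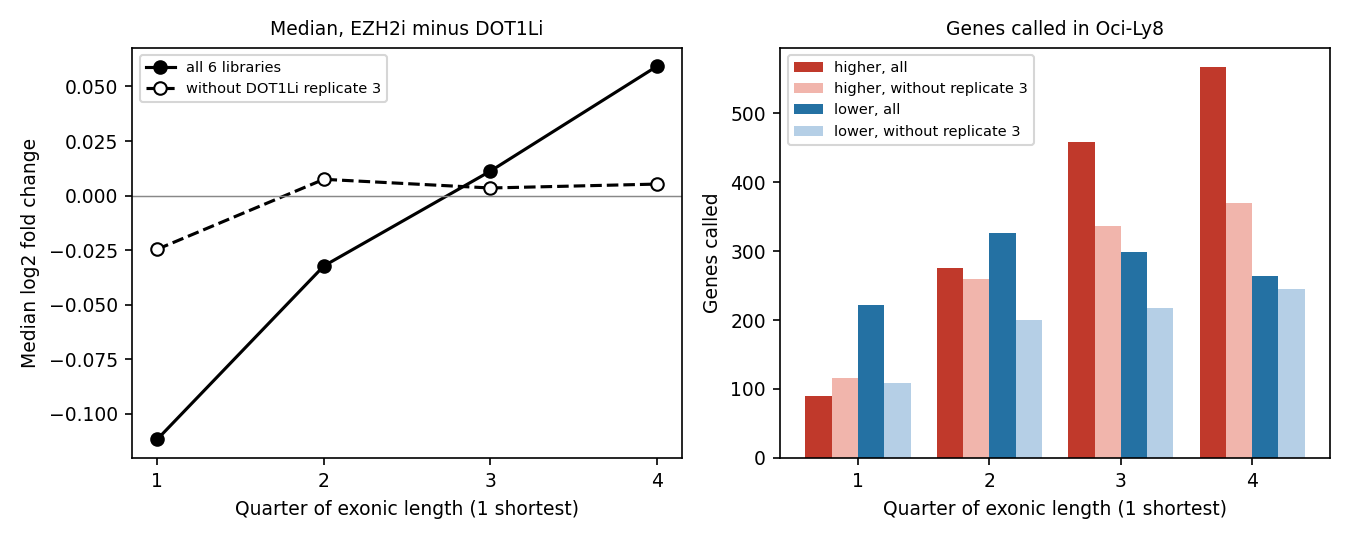
Left: median log2 fold change of EZH2i over DOT1Li in Oci-Ly8 in 4 equal bins of exonic length, with all 6 libraries (filled) and without DOT1Li replicate 3 (open). Right: genes called higher or lower in each bin; the median runs from -0.11 to 0.06 with all libraries and lies between -0.02 and 0.01 without that replicate.

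Some genes had counts with DOT1Li and 0 counts in all 3 EZH2i libraries, where a fold is a lower bound against 3 counts over the group. MAPK10, a JNK kinase of neurons, read 1.01, 1.78 and 1.07 CPM with DOT1Li and 2.52, 0.566 and 1.12 with DMSO, at least 20.3-fold lower with EZH2i (adjusted p = 1.1e-05). The secreted phospholipase PLA2G2D read 1.197, 0.541 and 0.645 with DOT1Li and 0.0741, 0 and 0.0858 with DMSO, at least 11.9-fold lower with EZH2i (adjusted p = 0.00014). MAPK10 was thus present with DMSO, while PLA2G2D was near 0 there. CFAP61 was at least 9.87-fold lower (adjusted p = 0.00013), and had 0 counts in DOT1Li replicate 3. PLA2G2C and TEKT5 had 5 counts each with DOT1Li. Their calls were kept in 6 of 16 and 9 of 17 alternative settings that gave a value.

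The same contrast was tested in the other 3 lines, and the difference of Oci-Ly8 from their mean was tested in the same fit. EZH2i against DOT1Li gave 923 higher and 404 lower genes in Oci-Ly7 (5.2% and 2.28%, 7.48% together), 1541 and 945 in SUDHL6 (8.68% and 5.32%, 14% together) and 1888 and 1506 in Oci-Ly18 (10.6% and 8.48%, 19.1% together). For 288 genes (1.62%) the Oci-Ly8 difference was higher than the mean of the others, and for 294 (1.66%) lower, 3.28% together, or 200 and 203 without DOT1Li replicate 3. Without EZH2i replicate 1 these counts were 179 and 174, and without EZH2i replicate 2 the count lower was 183. Genes with 0 counts in a line's compared groups could hardly pass this test.

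Some members of the amino acid, secretory and interferon lists had a higher log2 difference in Oci-Ly8 than the mean of the other lines. Of 32 ATF4 list members 13 were higher in Oci-Ly8 than in the other lines (13 without DOT1Li replicate 3), against 1.62% of all genes. The medians of this list were -0.08 in Oci-Ly7, 0.15 in SUDHL6 and 0.04 in Oci-Ly18. SLC7A11 was at 1.75 in Oci-Ly8, against -0.23 in Oci-Ly7, 0.16 in SUDHL6 and -0.46 in Oci-Ly18 (difference 1.92, adjusted p = 6.3e-06). PSAT1 was at 0.90 against -0.11, -0.05 and -0.22 (difference 1.03, adjusted p = 2.7e-06). In both genes no other line reached the Oci-Ly8 value. Of 31 secretory members 9 were higher in Oci-Ly8 (7 without DOT1Li replicate 3), and of 52 interferon members 10 (12 without it). The interferon list had a median of 0.27 in Oci-Ly8, against -0.03 in Oci-Ly7, -0.07 in SUDHL6 and -0.81 in Oci-Ly18, so the median farthest from 0 was the negative one of Oci-Ly18.

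MX1 changed sign between lines. It was at 1.20 in Oci-Ly8, against -0.14 in Oci-Ly7, -1.52 in SUDHL6 and -1.41 in Oci-Ly18, the order kept for the genes that follow (difference 2.22, SE 0.24, adjusted p = 8.7e-08). TNFRSF13C was lower with EZH2i in Oci-Ly8 (-0.53) and at 0.07, 0.26 and 2.81 elsewhere (difference -1.57, adjusted p = 4.7e-09). JUP was at -1.70 against -0.06, 0.27 and -0.22 (difference -1.70, adjusted p = 7.5e-16), so the other lines lay near 0. CYBB was lower with EZH2i in all 4 lines, at -1.16 in Oci-Ly8 and -1.82, -2.46 and -2.45 elsewhere. The fold change in Oci-Ly8 was the smallest in size (difference 1.09, adjusted p = 0.012). DNTT was higher in Oci-Ly8 (2.60) and in Oci-Ly18 (3.29), and not in Oci-Ly7 (-0.16) or SUDHL6 (-0.49).

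**Figure D5:**
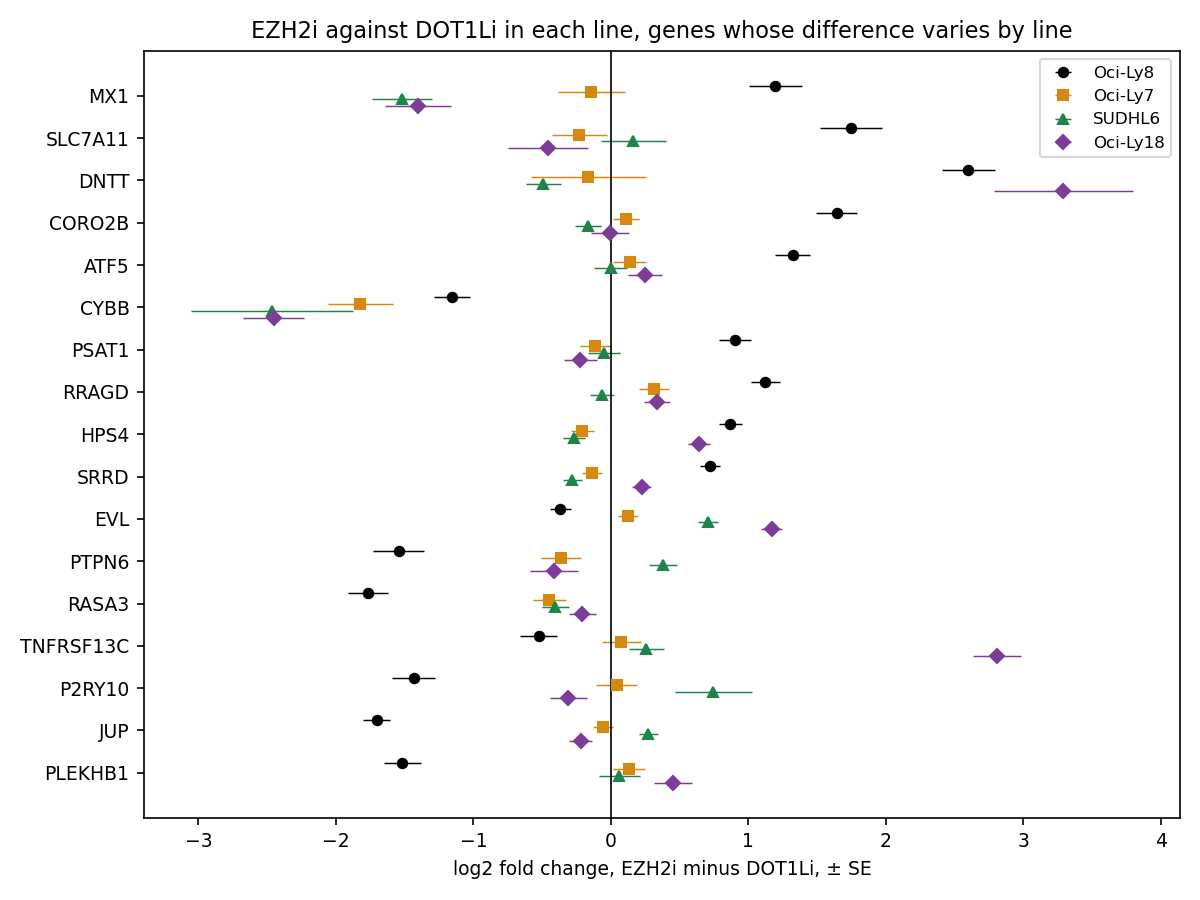
Log2 fold change of EZH2i over DOT1Li, with its standard error, in each of the 4 lines for 17 genes whose Oci-Ly8 difference departed from the mean of the other 3 lines at an adjusted p under 0.05. The genes were picked by this difference, 6 per direction, or after their values were seen. Black circles are Oci-Ly8; MX1 lies right of 0 in Oci-Ly8 and left of 0 in the other lines, and CYBB lies left of 0 in all 4.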

How the data were processed

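Per the labels, RNA of 48 libraries (4 lines, 4 treatments, 3 replicates) was read with a stranded poly(A) kit. The authors deposited whole-number read counts per gene (37706 genes), and per the submitters' processing notes used STAR, DESeq2 (role not given) and GRCh38. Versions, counting tool, strand setting and annotation were not given in the sources used here, so reads of overlapping antisense genes cannot be told apart. All 48 columns were mapped by name.

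Genes were filtered with filterByExpr (17749 kept), scaled by TMM and fitted with edgeR 4.0.16 (R 4.3.3), using the robust quasi-likelihood F test with 16 groups and 32 residual degrees of freedom. All p-values are 2-sided and adjusted by Benjamini-Hochberg over all genes tested, with calls at 0.05. CPM and log2 fold changes were computed from the deposited counts. The SE (standard error) printed with a fold change is its size divided by the square root of the F statistic. It was not estimated by the fit itself. limma 3.58.1 and DESeq2 1.42.0 gave alternatives, as did other scalings, filters, a replicate block and leaving out single libraries. Exonic lengths came from GENCODE 29. On simulated data of 17749 genes for this comparison, 87 of 100 genes changed by log2 1 and 20 of 100 changed by 0.5 were called, with 5 false calls. The simulated spread was set to the same value for every gene and was not taken from these libraries. No pair of replicates agreed within sampling noise (chi-square per gene at least 1.87). In Oci-Ly8 DMSO it was 15.1 between replicates 1 and 2, and 50.3 and 48.8 between these and replicate 3. In Oci-Ly8 DOT1Li it was 20.6 and 25.8 between replicate 3 and replicates 1 and 2. The highest value of any other pair was 7.83, in Oci-Ly7 DOT1Li.

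The members and the lists were chosen with earlier results of these data known. Named genes were a panel of 31, the 12 highest and 12 lowest protein-coding genes called in both fits with at least 5 CPM in a group and no overlap, up to 4 members per list called in both fits with the smallest adjusted p, 6 per direction by the difference from the other lines, and up to 5 called in both fits with 0 counts in 1 group. Named outside this rule, after their values were seen, were ASNS, ATF3, ATF4, CD22, CD3G, CD4, CHAC1, CTH, CYBA, DDX60, ERN1, FCRL3, GBP1, HSPA5, IL21R, IL7R, INPP5D, LCK, LYZ, MTHFD2, NCF1, NCF4, NFKB2, OAS1, PHGDH, PIK3CD, RELB, RSAD2, S1PR1, SESN2, SLC7A5, SQLE, STAT5A, STAT6, TRIB3, TXNDC5, USP18 and ZAP70, and the markers listed at 0. Some genes that the rule picks are not reported here.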

Additional observations from a re-analysis of the deposited data

Results flagged for a closer look

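For 17 named genes the response to EZH2i against DOT1Li in Oci-Ly8 differed from the mean of Oci-Ly7, SUDHL6 and Oci-Ly18, by a test of the difference in the edgeR quasi-likelihood fit (adjusted p under 0.05). All 17 were called without DOT1Li replicate 3 too, in a fit that shares the other libraries. The first genes listed, 6 per direction, were picked by this same difference from the other lines. That they passed the test, in either fit, was therefore largely set by the selection. The log2 differences that were higher in Oci-Ly8 were 2.22 for MX1, 1.66 for CORO2B, 1.19 for ATF5, 0.93 for RRAGD (a Rag GTPase of amino acid sensing), 0.81 for HPS4 and 0.79 for SRRD, which overlaps HPS4 on chromosome 22, so reads may be shared. Those lower in Oci-Ly8 were -1.73 for PLEKHB1, -1.70 for JUP, -1.59 for P2RY10 (a lysophospholipid receptor), -1.57 for TNFRSF13C, -1.41 for RASA3 and -1.03 for EVL (an actin regulator). EVL was at -0.37 in Oci-Ly8 and 0.12, 0.70 and 1.17 in the other lines. TNFRSF13C was at 2.81 in Oci-Ly18, against 0.07 in Oci-Ly7 and 0.26 in SUDHL6.

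Of these, 5 genes were chosen after their values were seen. The difference was 1.92 for SLC7A11, 1.72 for DNTT, 1.09 for CYBB, 1.03 for PSAT1 and -1.41 for PTPN6. The differences are of log2 fold changes, and their causes were not tested.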

How the results depend on the processing

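Of 106 named genes called in the comparison of EZH2i with DOT1Li, all 106 kept their sign in every alternative setting that gave them a value. In those settings 82 kept their call. There were 18 settings, of which 16 gave a value for CFAP61, PLA2G2D and PLA2G2C, and 17 for TEKT5. The counts of genes moved most with the libraries that entered the fit. With the 12 Oci-Ly8 libraries alone 606 genes were higher and 344 lower, and with the 6 compared libraries alone 681 and 362. Leaving out single libraries gave 1054 to 1298 higher and 719 to 1156 lower. DESeq2 gave 1549 and 1236, limma voom with library weights 1751 and 1553, no filter on low counts 1439 and 949, and removal of the exonic length trend 1385 and 1271. For the difference of Oci-Ly8 from the other lines, leaving out single libraries gave 179 to 295 higher and 174 to 395 lower, DESeq2 gave 471 higher, and limma voom 596 and 670. For DOT1Li against DMSO, leaving out single libraries gave 382 to 883 higher and 238 to 941 lower. For EZH2i against DMSO it gave 1176 to 1959 higher and 720 to 2158 lower. The causes were not tested.

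Replicate numbers are shared between groups, and the labels do not say that they mark a batch. Deviations of same-numbered EZH2i and DOT1Li libraries from their group means correlated at 0.253, 0.0808 and 0.117 over 9937 genes, so that not every pair passed 0.1. Every library correlated best with its own number, a hint from the data and not from the design. With a replicate block 1899 genes were higher and 1714 lower, and 647 and 314 with the 6 compared libraries alone. The block gave 632 and 685 for the difference from the other lines, and 845 lower with DOT1Li against DMSO. Small changes were mostly missed on simulated data at the depth and number of these libraries, where log2 changes of 0.5 were called in 20 of 100 genes. The simulation set the same spread for every gene and library, so it does not give the error rates at the measured spread. Where a single library was left out, the other groups shared the estimate of spread.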
